A study of Mus musculus with 6 samples.

Results

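The Rab genes encode small GTPases of membrane traffic. Members were chosen by symbol: every gene on the array annotation named Rab, a number and optional lower-case letters or digits, which gave 72 of 18193 genes. Of these, 59 encode Rab GTPases. The same pattern also took in 10 companion genes whose products are not Rab GTPases, such as the Rab11fip effectors and the Rab3gap subunits, and 3 antisense RNAs. Each gene was read by 1 probe set, the one with the highest mean over the 6 arrays among those that named that gene alone.

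A Rab protein is a switch. An exchange factor loads it with GTP on a particular membrane, where it gathers effectors that tether, move or fuse vesicles, and a GTPase-activating protein returns it to the GDP form, which GDI extracts from the membrane. A pair of lipid anchors, added by geranylgeranyl transferase with the help of a Rab escort protein, holds it in place. Different Rabs mark different compartments, from the Golgi to endosomes, lysosomes and secretory granules. In lymphocytes, Rab-directed traffic recycles receptors to the cell surface and carries lytic granules.

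The samples were DN2 cells sorted from mouse fetal thymus on the FVB background, 3 arrays from wild-type and 3 from E2A-deficient cells. DN2 cells are CD4- CD8- thymocytes in which commitment to the T lineage takes place, and E2A denotes the E protein transcription factors made from Tcf3. The E2A allele, the embryonic age and the surface gate of the sort are not given in the sources used here. The labels do not say that replicates came from separate animals, so p-values reflect the spread among these 6 arrays alone, which may be technical in part. The values were linear intensities, and changes are given as E2A deficient minus wild type on the log2(intensity + 1) scale, which understates changes of dim genes because the values have a floor.

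Array medians were 77.4 to 79.0, and Pearson correlations of log2 values across probe sets were 0.984 to 0.990 within a group and 0.975 to 0.984 between groups. Tcf3 had intensities of 477, 421 and 414 in wild-type and 236, 229 and 281 in E2A-deficient cells. The 5'/3' ratio of the beta-actin controls, a measure of RNA and amplification quality, was 0.104, 0.162 and 0.0981 in wild-type and 0.165, 0.160 and 0.149 in E2A-deficient arrays. Xist stood at 58.7 in wild-type replicate 3 and between 1247 and 4456 on the other 5 arrays. Wild-type replicate 3 was thus not a technical repeat of wild-type replicates 1 and 2. Whether any of the other arrays were repeats is not known. No E2A-deficient array had low Xist, so the groups were not matched in this respect. Of 8 markers set for DN2 cells 6 were measured, and their summed intensity was 4709 to 5009 in wild-type and 4516 to 5370 in E2A-deficient cells; Thy1 among them fell. Cd4, Cd8a and Cd8b1 had group means of 66.6 to 90.2, below the median of all genes (93.1). All 8 measured markers of innate lymphoid cells rose in E2A-deficient cells, with summed intensities of 1191 to 1289 against 3827 to 4114. In sorted bulk cells, fewer cells of a type and less RNA per cell cannot be told apart, and the part of these cells in the Rab results was not tested.

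Between the groups, 5 Rab genes rose and 2 fell in E2A-deficient cells. Those that fell, Rab38 and Rab44, belong with secretion and lysosome-related organelles, as does Rab27b, which rose by the probe set used here. Its 3 other probe sets had positive changes of 0.12, 0.44 and 0.14, none of which passed. The recycling Rabs Rab4a and Rab4b rose as well, together with Rab1b and Rab19. The other 65 members did not pass (limma, Benjamini-Hochberg adjusted p under 0.05 over all 18193 genes). The share of members called was 9.72%, beside 3.46% of all genes tested. That share includes Rab38 and Rab27b, whose probe sets had the highest mean only through the group in which they were high. By direction, 2.40% of all genes were called higher and 1.06% lower. The members were brighter than genes at large, with a median of the mean log2 intensity of 7.18 against 6.56. When only genes brighter than the median were fitted, 470 of 9096 were called higher and 228 lower, a larger share than the 3.46% of all genes. In that fit Rab4a and Rab4b were called higher, and Rab38, Rab44 and Rab27a lower. The 21 members below the median could not be tested there. The part of brightness in the share of members called was not tested.

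Across the 72 members the log2 change ran from -1.55 to 0.90 with a median of 0.010, and across all genes the median was 0.015. The change was positive in 41 members and negative in 31. The 3 E2A-deficient arrays lay above all wild-type arrays in 7 members, beside 13.2% of all genes, and below them in 5, beside 6.74%. Together this is 16.7% of members and 19.9% of all genes. Over all genes 630 were called, 437 of them higher and 193 lower, and quantile normalization turned this split to 362 and 257.

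Leaving out 1 array changed these counts. The number of Rab genes called higher became 3 without wild-type replicate 1 or 2 or E2A-deficient replicate 2, and 2 without wild-type replicate 3 or E2A-deficient replicate 1 or 3. The number called lower became 1 without wild-type replicate 2 or E2A-deficient replicate 1 or 3, and over all genes 320 to 533 were called, with 401, 405, 338, 381 and 320 without wild-type replicate 2 or 3 or E2A-deficient replicate 1, 2 or 3. With the beta-actin 5'/3' ratio as a covariate, 1 Rab gene was called higher, Rab19, and 1 lower, Rab38, while 123 of all genes were called. Wild-type replicates 1 and 3 had lower ratios than every E2A-deficient array. The covariate thus overlaps in part with genotype, and the fit cannot fully tell them apart.

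**Figure D1:**
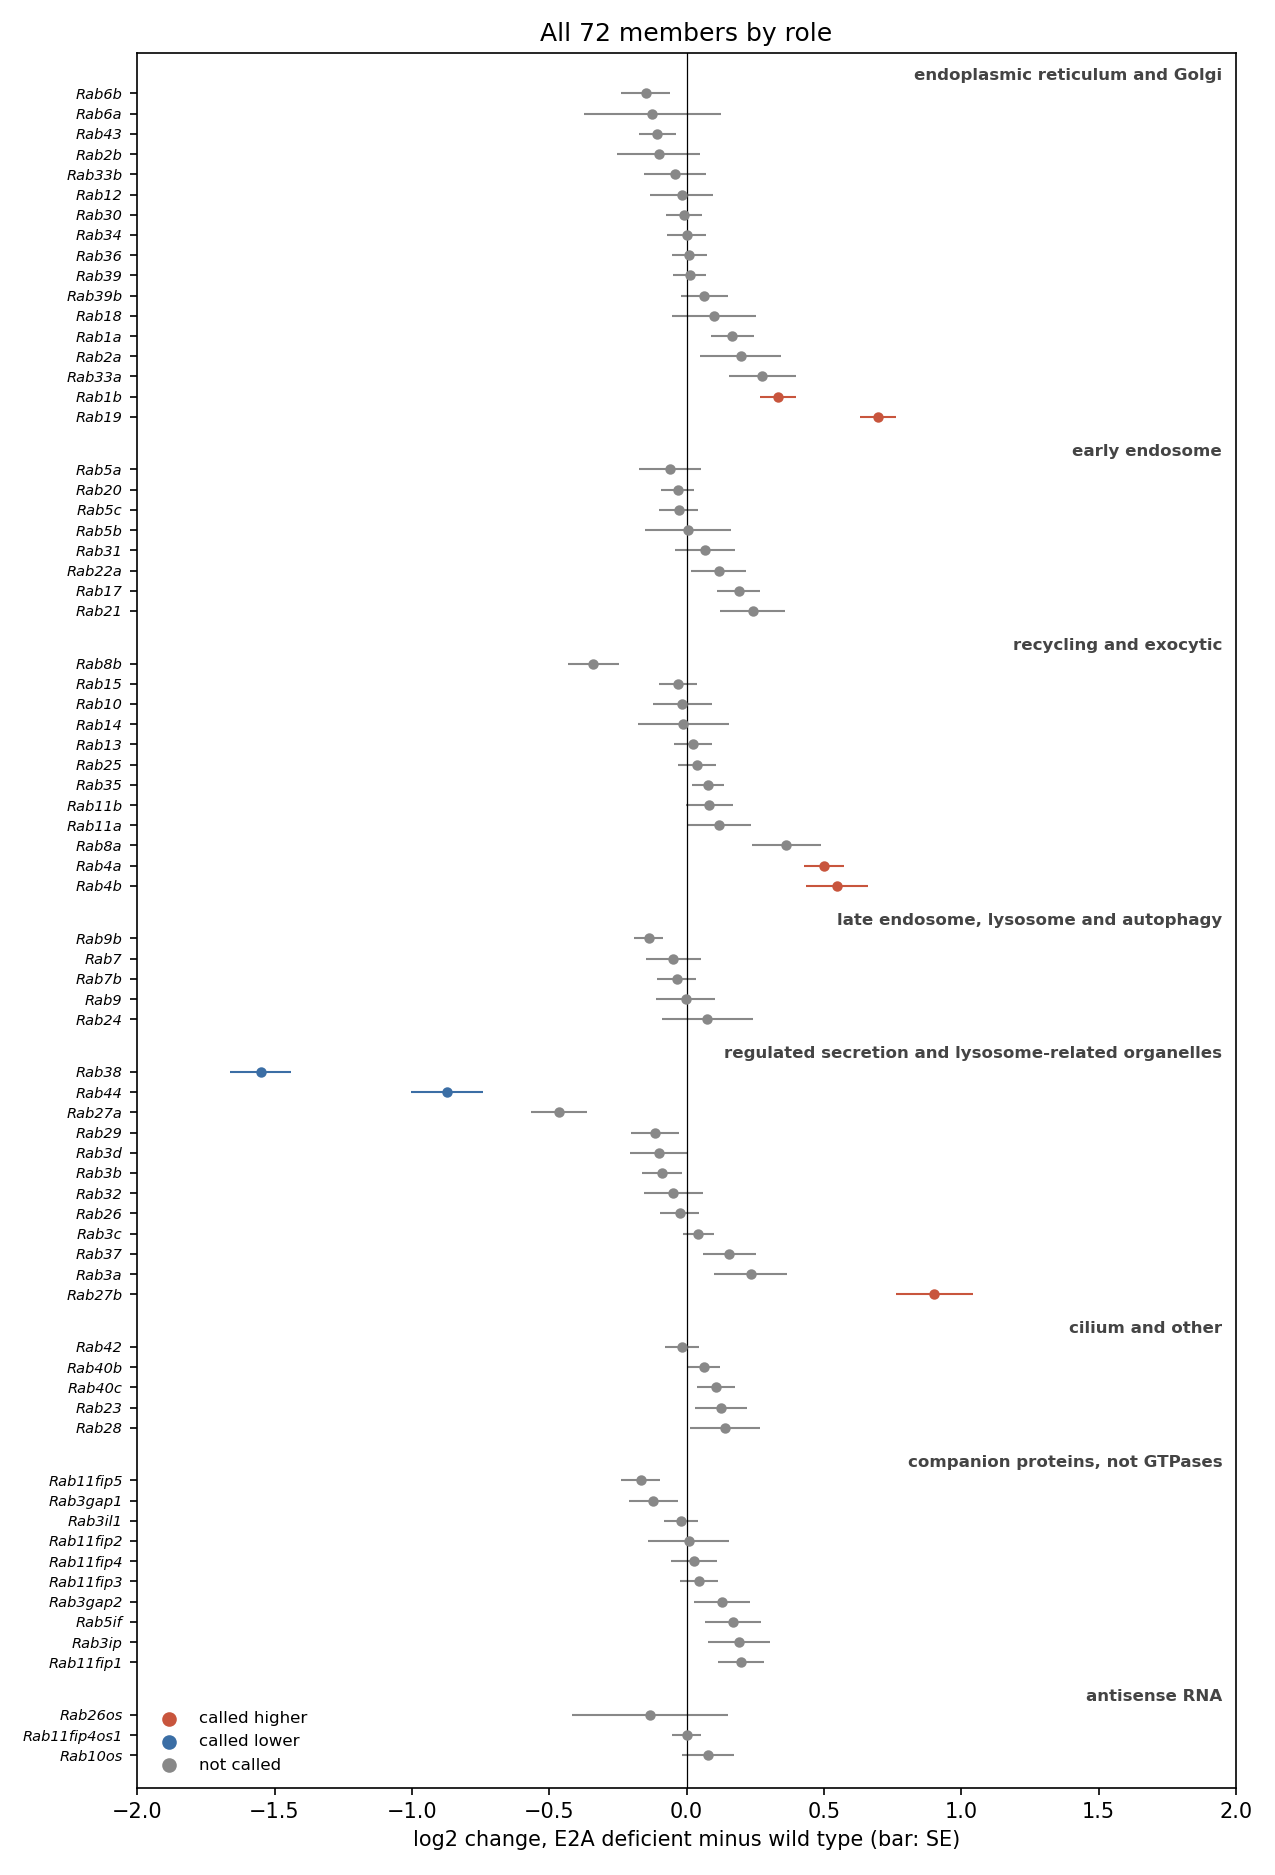
The log2 change of each of the 72 members (E2A deficient minus wild type, horizontal axis; bars are the SE) grouped by role, with called genes coloured. The 7 called members range from -1.55 (Rab38) to 0.90 (Rab27b), and the calls lie in 3 of the 8 roles shown, with calls in both directions only among the Rabs of regulated secretion.

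Among the 12 Rabs of regulated secretion and lysosome-related organelles, 1 rose, 2 fell and 9 did not pass, 25% called beside 3.46% of all genes. Rab38, which delivers enzymes to melanosomes and related organelles, had the largest change of all members by the probe set used here. Its intensities were 298, 291 and 382 in wild-type and 104, 117 and 106 in E2A-deficient cells. The E2A-deficient arrays lay close together and far below the lowest wild-type array. The means were 324 ± 50.8 and 109 ± 6.71 (SD, n = 3), a ratio of 0.337, and the log2 change was -1.55 (SE 0.112, limma adjusted p = 0.000838).

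The probe set of Rab38 is of a kind that can hybridise to other transcripts. Its second probe set, which is not, read 184, 203 and 227 in wild-type and 114, 129 and 109 in E2A-deficient cells. The first probe set had the higher mean only through the wild-type arrays, so the choice itself favoured a fall. The p-value of that probe set is therefore no independent support for one. In the second the groups did not overlap either, with a smaller change of -0.80 (SE 0.0960, limma adjusted p over probe sets = 0.00994). That change was smaller in size than the -0.87 of Rab44. Rab38 was called under all 16 alternatives tried, with changes from -1.62 to -0.80, but most of these reused the first probe set. Markers of melanocytes, the cells in which Rab38 is best known, had summed intensities of 425 to 455 in wild-type and 431 to 472 in E2A-deficient cells, all 6 below the upper quartile of all genes (209) on every array and none called. Rab32, the closest relative of Rab38 and active on the same organelles, was dim in both groups, at 71.7, 91.1 and 95.1 against 85.3, 78.8 and 83.6, and did not pass (-0.05).

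Rab44, a large Rab with calcium-binding EF hands that is known from mast-cell granules and osteoclasts, read 344, 370 and 449 in wild-type and 192, 248 and 194 in E2A-deficient cells. All 3 E2A-deficient arrays were below the wild-type range. Its log2 change was -0.87 (SE 0.132, limma adjusted p = 0.0156). The call was lost without wild-type replicate 2 (-0.90, adjusted p = 0.0525), E2A-deficient replicate 1 (-0.81, 0.0593) or E2A-deficient replicate 3 (-0.82, 0.0634), and when the fit included the beta-actin ratio (-0.81, 0.209). Mast-cell markers gave sums of 1298 to 1432 in wild-type and 1196 to 1591 in E2A-deficient cells, with 0 of 5 called. Most of each sum was Cpa3, with means of 1104 and 1175, and 4 of the 5 were below the upper quartile of all genes on every array.

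The paralogues Rab27a and Rab27b, which dock secretory lysosomes and exosome-bearing endosomes at the plasma membrane, had changes of opposite sign. Rab27b read 56.0, 66.8 and 60.9 in wild-type cells, near the floor of the data, and 141, 96.1 and 112 in E2A-deficient cells. The groups did not overlap, and the E2A-deficient arrays spread more widely. The log2 change was 0.90 (SE 0.139, limma adjusted p = 0.0166). This probe set had the highest mean only through the E2A-deficient arrays, so the choice itself favoured a rise and the p-value is no independent support for one. In wild-type cells another probe set of Rab27b was brighter, at 76.6, 78.8 and 83.6 against 88.3, 86.4 and 85.2 in E2A-deficient cells, and its change was 0.12. The other probe sets changed by 0.44 and 0.14, none of the 3 passed in the fit over probe sets, and the mean of all 4 gave 0.40. The call was lost without wild-type replicate 3 (adjusted p = 0.0527) or E2A-deficient replicate 3 (0.0604) and with the covariate (0.223). Rab27b is also a platelet gene, and the summed markers of megakaryocytes and platelets were 612 to 692 in wild-type and 714 to 936 in E2A-deficient cells, with 0 of 5 called and 4 below the upper quartile of all genes on every array. Among them Itga2b read 310, 403 and 384 against 399, 628 and 504 (0.46, limma adjusted p = 0.236), and Pf4 had means of 70.2 and 78.8. Their part in the result was not tested.

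Rab27a, the form that lytic granules of T cells depend on, read 299, 296 and 370 in wild-type and 237, 246 and 214 in E2A-deficient cells. The groups did not overlap, but the change of -0.46 (SE 0.102) did not pass (limma adjusted p = 0.0612). It did pass (0.0342) when the fit was limited to genes above the median brightness. Its other probe sets had changes of -0.07, -0.03 and -0.06.

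The remaining 8 secretory Rabs had changes between -0.11 and 0.23. They were Rab3a (0.23), of neurosecretory vesicles, and its relatives Rab3b (-0.09), Rab3c (0.04) and Rab3d (-0.10). The others were Rab26 (-0.02), Rab29 (-0.11), Rab32 and Rab37 (0.15). None of these 8 had groups that did not overlap.

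**Figure D2:**
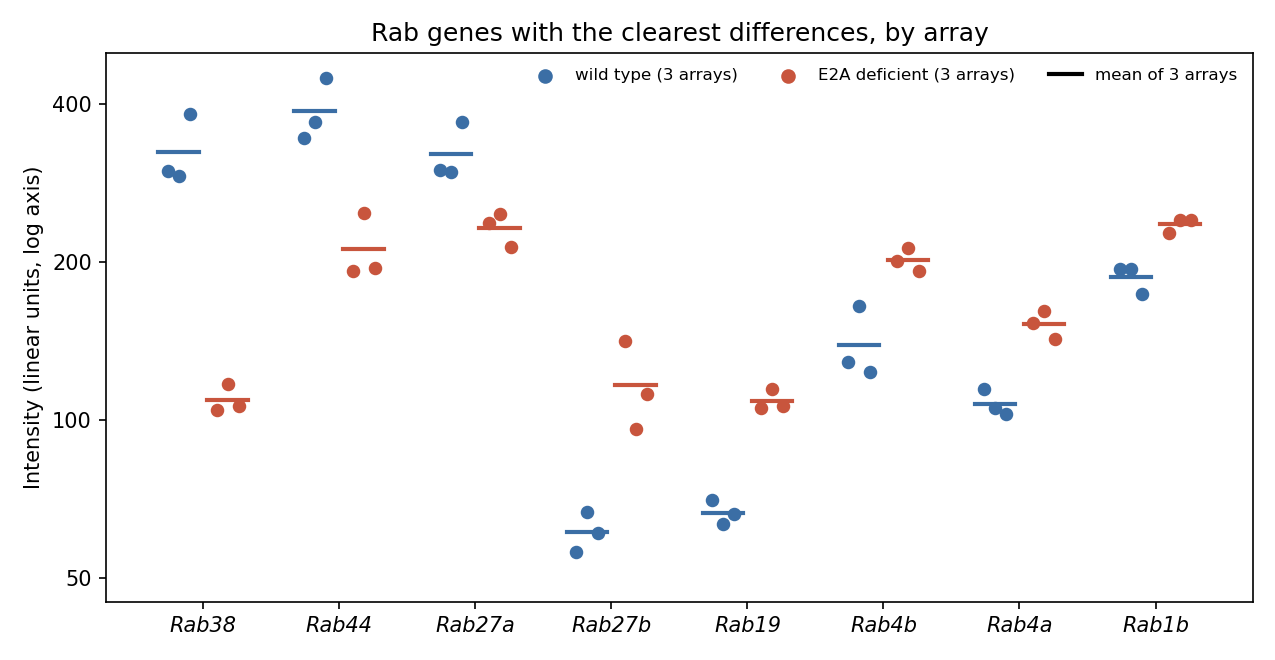
Intensity on each array (vertical log axis, linear intensity units) for the 7 called Rab genes and Rab27a; points are arrays and bars the mean of 3. In each of the 8 genes the arrays of one group lie entirely above those of the other. By the probe sets used, Rab38 lies furthest apart (means of 324 and 109).

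Of the 12 Rabs of recycling endosomes and exocytic carriers, 2 rose and 10 did not pass, 16.7% called beside 3.46% of all genes. The 2 that rose were the paralogues Rab4a and Rab4b, which drive the fast return of receptors from early endosomes to the cell surface. Rab4a read 114, 105 and 102 in wild-type and 153, 161 and 143 in E2A-deficient cells. Every E2A-deficient array was above the wild-type range. The log2 change was 0.50 (SE 0.0718, limma adjusted p = 0.0130). Its probe set is shared between transcripts, and the one that is not changed by 0.21 and did not pass (adjusted p = 0.392 without shared probe sets). The call was also lost without wild-type replicate 2 (0.0506) or E2A-deficient replicate 1 (0.0524) and with the beta-actin covariate (0.154).

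Rab4b read 129, 165 and 123 against 201, 213 and 192. The highest wild-type array, replicate 2, was also the one with the highest beta-actin ratio of its group. Among E2A-deficient arrays Rab4b was highest on replicate 2 and the ratio on replicate 1. A link between them was not tested. The change was 0.55 (SE 0.112, limma adjusted p = 0.0475), close to the threshold. The call did not hold without wild-type replicate 1 (0.112) or 3 (0.117) or E2A-deficient replicate 1 (0.138), 2 (0.137) or 3 (0.112), after quantile normalization (0.0549) or median centring (0.0624), with a pseudocount of 32 (0.0639), and with the covariate (a change of 0.31, 0.242). Without wild-type replicate 2 the change was 0.68 and passed (0.0145).

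Rab8a and Rab8b, which carry cargo from the Golgi and endosomes to the plasma membrane, had changes of opposite sign, neither of which passed. Rab8a read 231, 304 and 277 in wild-type and 318, 328 and 399 in E2A-deficient cells, a change of 0.36 (limma adjusted p = 0.199). Rab8b read 881, 816 and 885 against 774, 663 and 612, a change of -0.34 (0.118). In both genes the groups did not overlap.

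The recycling Rab11a, which carries receptors through the slower perinuclear route, read 375, 421 and 355 against 407, 363 and 486, and its groups overlapped (0.12). Rab10, of exocytic carriers, read 424, 465 and 450 against 443, 379 and 511 (-0.02). Rab14, which acts between the Golgi and endosomes, had the widest wild-type spread of these, 2061, 1527 and 1260, against 1645, 1621 and 1452 (-0.01). The signs of Rab10 and Rab14 turned with the array left out, so neither has a direction here. Rab11b, Rab13, Rab15, Rab25 and Rab35 had changes from -0.03 to 0.08.

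Of the 17 Rabs placed here with the endoplasmic reticulum and Golgi, 2 rose and 15 did not pass, 11.8% called beside 3.46% of all genes. Rab19, a less studied Rab described at the Golgi, had the most stable rise. Its intensities were 70.3, 63.2 and 66.3 in wild-type and 105, 114 and 106 in E2A-deficient cells. The groups were tight and well apart, although both lay near or below the middle of all genes. The log2 change was 0.70 (SE 0.0661, limma adjusted p = 0.00226), and it was called under all 15 alternatives in which it could be tested, with changes from 0.51 to 0.76. Rab19 has 1 probe set, so the alternatives on the choice of probe set did not vary its values.

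Rab1b, which moves vesicles from the endoplasmic reticulum to the Golgi, read 194, 194 and 174 in wild-type and 227, 241 and 240 in E2A-deficient cells. The shift was small but the groups did not overlap. The change was 0.33 (SE 0.0667, limma adjusted p = 0.0429), and the call was lost with any 1 of the 6 arrays left out (adjusted p from 0.0664 to 0.146). It was lost as well after quantile normalization (0.0516) or median centring (0.0528), among only brighter genes (0.0685), with variances that followed intensity (0.131) and with the covariate (0.362). Its paralogue Rab1a, of the same step, read 1529, 1404 and 1403 against 1669, 1477 and 1729, and the change of 0.17 did not pass (0.373).

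Rab2a, which acts between the same compartments, read 862, 661 and 593 in wild-type and 799, 708 and 901 in E2A-deficient cells (0.20, not passed). Rab6a, of traffic back through the Golgi, had the widest spread of any member: 418, 284 and 189 in wild-type cells against 263, 248 and 265, with a change of -0.13. The wild-type arrays thus covered the whole E2A-deficient range. The other 12 members of this group were Rab2b, Rab6b, Rab12, Rab18, Rab30, Rab33a, Rab33b, Rab34, Rab36, Rab39, Rab39b and Rab43, with changes from -0.15 (Rab6b) to 0.28 (Rab33a).

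The 200 bases before the annotated start are shown for the 3 risen Rabs with a match in the promoter table, since E2A is known to bind E-boxes. The sequences are from RefSeq, build GRCm38.p6, written 5′ to 3′ on the strand of the gene, and capitals mark CANNTG, the E-box core that E proteins bind. The intervals are chr6:39381153-39381352 (plus strand) for Rab19, chr7:27178884-27179083 (minus strand) for Rab4b and chr19:5106997-5107196 (minus strand) for Rab1b.
Rab19: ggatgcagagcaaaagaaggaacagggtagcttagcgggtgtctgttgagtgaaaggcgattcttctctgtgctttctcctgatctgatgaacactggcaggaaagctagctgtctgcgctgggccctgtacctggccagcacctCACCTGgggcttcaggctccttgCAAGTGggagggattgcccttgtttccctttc
Rab4b: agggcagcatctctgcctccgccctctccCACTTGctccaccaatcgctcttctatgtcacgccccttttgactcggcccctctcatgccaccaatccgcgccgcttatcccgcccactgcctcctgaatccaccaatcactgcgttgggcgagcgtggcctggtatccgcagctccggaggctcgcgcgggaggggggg
Rab1b: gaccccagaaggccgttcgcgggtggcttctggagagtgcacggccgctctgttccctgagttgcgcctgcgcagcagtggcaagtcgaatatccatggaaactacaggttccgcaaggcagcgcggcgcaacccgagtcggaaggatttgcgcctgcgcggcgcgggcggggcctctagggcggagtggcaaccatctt
Rab19 held 2 matches, CACCTG starting at base -55 and CAAGTG at base -32, counted back from the start site at -1. Rab4b held 1, CACTTG starting at base -171, and Rab1b held 0. CANNTG reads as CANNTG on both strands, and it was present in 58.2% of the 32851 windows of this length in the table and in 53.9% of the 76 windows of the 58 members that matched. CAGGTG or its reverse complement CACCTG was in 13.9% of all windows and in 11.8% of those of members, and CAGCTG, its own reverse complement, was in 10.9% and 11.8%. A match is a description of these letters, and no binding was measured. Rab38, Rab44, Rab4a and Rab27b were not matched.

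Rabs of the early endosome gave no call among 8 members, beside 3.46% of all genes. Rab31 read 502, 448 and 368 against 448, 460 and 461 (0.07), with its sign turned by quantile normalization (-0.01). Rab17, best known from epithelial recycling, read 148, 160 and 148 against 165, 191 and 164, and its groups did not overlap, but the change of 0.19 did not pass (limma adjusted p = 0.299). The fusion Rabs Rab5a (-0.06), Rab5b (0.01) and Rab5c (-0.03) and the other members Rab20 (-0.03), Rab21 (0.24) and Rab22a (0.12) did not pass.

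Late endosome, lysosome and autophagy Rabs gave no call among 5, beside 3.46% of all genes. Rab7, which directs fusion with lysosomes, read 424, 401 and 515 in wild-type and 454, 422 and 413 in E2A-deficient cells (-0.05), and its groups overlapped. Rab9 (-0.0026), Rab24 (0.08) and Rab7b (-0.04) did not pass. Rab9b, at 61.7, 63.6 and 62.1 against 55.1, 57.4 and 57.5, was lower on every E2A-deficient array by a small amount near the floor (-0.14, limma adjusted p = 0.262). The ciliary and other Rabs Rab23, Rab28, Rab40b, Rab40c and Rab42 had changes between -0.02 and 0.14, and Rab40c, which joins a ubiquitin ligase, read 306, 325 and 339 against 358, 326 and 360.

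None of the 10 companion genes passed by limma, 2 of them with an unadjusted p under 0.05, which 15.7% of all genes reached. Those 2 were effectors of Rab11. Rab11fip1 read 87.3, 83.7 and 98.8 against 106, 108 and 95.6 (0.20), and Rab11fip5 read 124, 138 and 138 against 117, 112.5 and 126 (-0.17), with overlapping groups in both. Rab5if, one of the companions, read 1645, 1912 and 2173 against 2237, 2052 and 2118 (0.17). The other 7, among them the Rab3gap subunits and the exchange factors Rab3ip and Rab3il1, had changes between -0.12 and 0.19. The 3 antisense RNAs changed by -0.13 to 0.08 and did not pass.

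Whether Rabs of the same number shifted against each other was read as the log2 ratio of their intensities within each array, over all 21 pairs from 14 numbers, a comparison added after the values had been seen. With 3 arrays against 3, the exact two-sided permutation test can give no p below 0.1, so no pair could pass. In 5 pairs the groups did not overlap (exact permutation p = 0.1 each, 0.42 adjusted over the 21 pairs). Of all single genes 19.9% had groups that did not overlap, and no such share was taken over other pairs of genes. The count is therefore not read as a result about the pairs. One of them was Rab27b over Rab27a, with ratios of -2.40, -2.13 and -2.58 in wild-type and -0.74, -1.35 and -0.92 in E2A-deficient cells, a change of 1.37. Its size rests on the probe set of Rab27b that was chosen through the E2A-deficient arrays and lies near the floor in wild-type cells, and with the mean of each gene's probe sets it was 0.55. Rab8b over Rab8a went from 1.93, 1.42 and 1.67 to 1.28, 1.02 and 0.62, a change of -0.70, and of -0.31 with the mean of probe sets.

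The other pairs without overlap were smaller. They were Rab2b over Rab2a (-0.30), Rab3b over Rab3a (-0.32) and Rab3d over Rab3a (-0.33), and without wild-type replicate 1 the last was -0.07. Both Rab3 pairs share Rab3a, so they are not separate results. Rab4b over Rab4a changed by 0.05 and its groups overlapped, with ratios of 0.17, 0.64 and 0.27 in wild-type and 0.39, 0.40 and 0.42 in E2A-deficient cells. Rab1b over Rab1a changed by 0.17, also with overlap. A ratio of this kind shows unequal change and not which of the 2 genes changed.

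**Figure D3:**
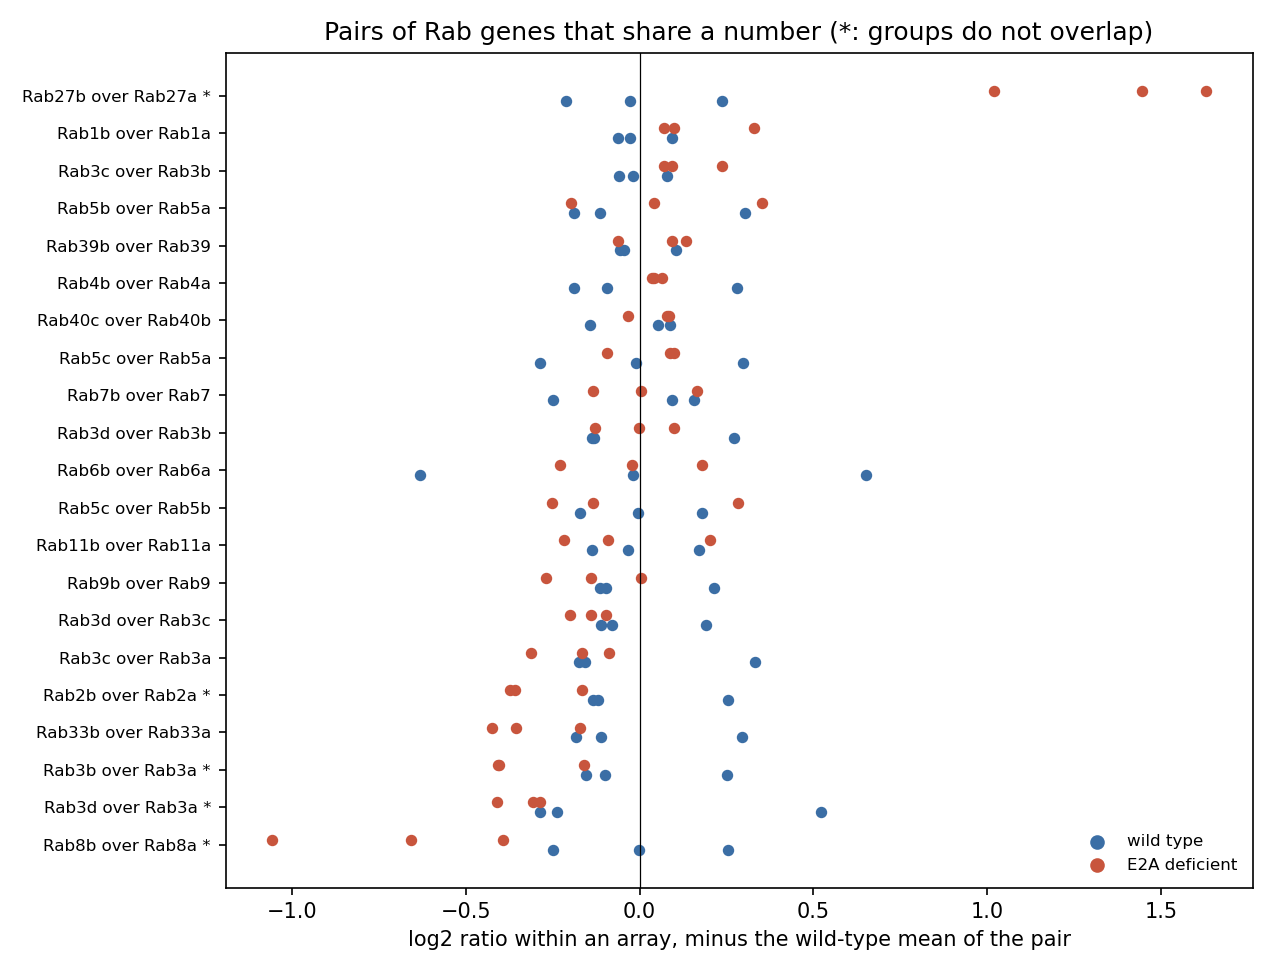
The log2 ratio of each of 21 same-number pairs on each array, with the wild-type mean of the pair set to 0 (horizontal axis); an asterisk marks pairs whose groups do not overlap. Rab27b over Rab27a lies furthest to the right in E2A-deficient cells (change 1.37) and Rab8b over Rab8a furthest to the left (-0.70).

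The genes that load, switch off, recycle or answer to Rabs were counted from 5 lists with 127 genes beside the members, of which 119 were measured. Of these, 3 rose and 3 fell, 5.04% called beside 3.46% of all genes. All 3 that fell were GTPase-activating proteins. Over the 119 genes the median log2 change was 0.052, and 32 of the 119 had groups that did not overlap, 26.9% beside 19.9% of all genes. The number lower was 1 without wild-type replicate 2 or E2A-deficient replicate 2 or 3 and with the beta-actin covariate, and 5 or 6 when only brighter genes were tested or the variances followed intensity.

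Of 35 GTPase-activating proteins, which switch Rabs off, 0 rose and 3 fell, 8.57% called lower beside 1.06% of all genes. As a list they showed no common direction, with a median log2 change of -0.011, 16 positive changes and 19 negative. Rabgap1l, which acts on endosomal Rabs, read 873, 843 and 704 in wild-type and 304, 265 and 226 in E2A-deficient cells. Every wild-type array was far above the highest E2A-deficient one. The change was -1.61 (SE 0.125, limma adjusted p = 0.00101). Its 4 other probe sets changed by -1.16, -0.87, -0.53 and -0.16, of which the first 2 passed in the fit over probe sets (0.0111 and 0.00363). It was called under all 16 alternatives, with -0.87 for the mean of probe sets.

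Tbc1d9b, a TBC-domain protein of the same class, read 912, 762 and 700 against 530, 422 and 510. The groups did not overlap, and its other probe sets changed by -0.51 and -0.42 and passed (0.0468 and 0.0452). The change was -0.70 (SE 0.122, limma adjusted p = 0.0266), lost without wild-type replicate 2 (0.0745) or E2A-deficient replicate 1 (0.0562), 2 (0.0697) or 3 (0.0746) and with the covariate (0.253). Tbc1d16, which acts on Rab4, read 258, 294 and 276 against 207, 202 and 161 (-0.55, SE 0.107, adjusted p = 0.0406). Its call was lost with any 1 array left out (0.0600 to 0.119), with a pseudocount of 32 (0.0541), with the mean of probe sets (-0.19, 0.369) and with the covariate (0.166). Its second probe set changed by 0.17 and did not pass.

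Of 33 exchange factors, 1 rose and 0 fell, 3.03% called beside 3.46% of all genes. Dennd1c, an exchange factor of Rab35, read 98.9, 114 and 104 in wild-type and 185, 181 and 179 in E2A-deficient cells, with little spread and no overlap. The change was 0.78 (SE 0.0667, limma adjusted p = 0.00154), and it was called under all 16 alternatives, while its second probe set changed by 0.15 and did not pass. Rab35 itself read 228, 216 and 232 against 238, 231 and 246 (0.08, not passed). The next smallest p-values belonged to Dennd4a, an exchange factor of Rab10 (-0.42, adjusted p = 0.0648), and Dennd2d (-0.33, 0.0872). Dennd4a passed after quantile normalization (0.0485) and when the fit was limited to genes above the median brightness (0.0457).

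Of 38 effectors and tethers beside the companions, 2 rose and 0 fell, 5.26% called beside 3.46% of all genes. Wdr44, an effector of Rab11, read 82.7, 77.4 and 85.0 against 110, 116 and 121 (0.50, SE 0.0650, limma adjusted p = 0.00859), with no overlap, but lost its call with the mean of probe sets (0.22, 0.102). Ehbp1l1, an effector of Rab8 and Rab10, read 95.1, 90.3 and 102 against 130, 150 and 127 (0.49, SE 0.0827, 0.0221). That call was lost without wild-type replicate 1 (0.0585) or 2 (0.0724) or E2A-deficient replicate 1 (0.0598), 2 (0.0568) or 3 (0.0511), without shared probe sets (0.24, 0.156) and with the covariate (0.146). Sytl4, a Rab27 effector, read 95.2, 89.5 and 78.6 against 65.9, 67.7 and 69.1 (-0.37, 0.0562) and passed without wild-type replicate 3 (0.0269).

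None of the 7 measured genes of prenylation and recycling passed by limma, and 2 of them reached an unadjusted p under 0.05, beside 15.7% of all genes. They were Rabif (0.46, adjusted p = 0.173), which binds nucleotide-free Rabs, and Rabggta (0.32, 0.195), the alpha subunit of the geranylgeranyl transferase, and the escort protein gene Chml followed (0.30, 0.390). Rabif had another sign without shared probe sets (-0.09). Of the 6 Rab-like genes 0 passed by limma and 1 had an unadjusted p under 0.05 (again beside 15.7% of all genes), Rabl6 (0.28, 0.286), ahead of Rabl3 (0.27, 0.407) and Rasef (-0.10, 0.434).

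**Figure D4:**
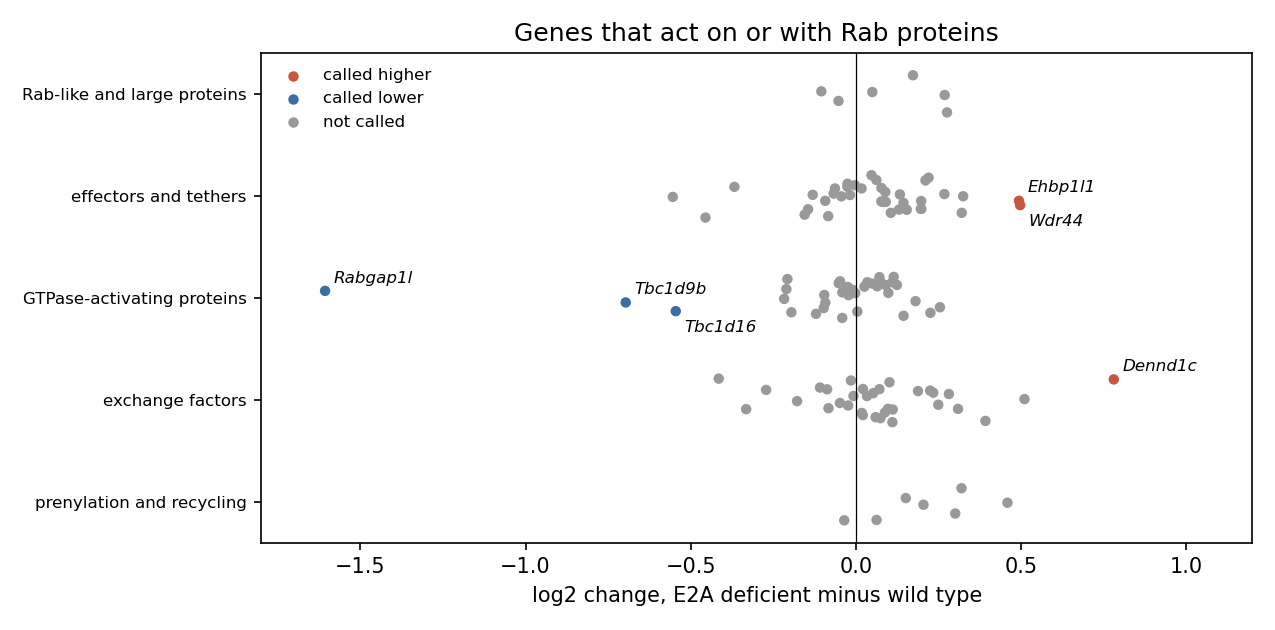
The log2 change of 119 genes that act on or with Rabs (E2A deficient minus wild type, horizontal axis) by list, with called genes coloured and named; vertical scatter within a list has no meaning. Rabgap1l lies furthest to the left (-1.61) and Dennd1c furthest to the right (0.78).

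The settings under which each Rab call held differed by gene. Rab38 kept its call in all 16 alternatives and Rab19 in all 15 that could test it, whereas Rab4a and Rab44 lost theirs in 4 of 16, Rab27b in 4 of 15, Rab4b in 9 of 15 and Rab1b in 12 of 16. These tallies are not on equal terms. For Rab38 and Rab27b most alternatives reused the probe set that was chosen through the group in which it was high. Their tallies are therefore no independent support for a change. Rab19, Rab44, Rab1b and Rab4b had 1 probe set each, so averaging probe sets could not change their values. For Rab19, Rab44 and Rab1b, leaving out shared probe sets could not either. In the fit over all 45037 probe sets, where 1.79% were called, 6 of the 161 probe sets of members passed, from the 5 genes Rab38, Rab19, Rab4a, Rab44 and Rab27b.

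**Figure D5:**
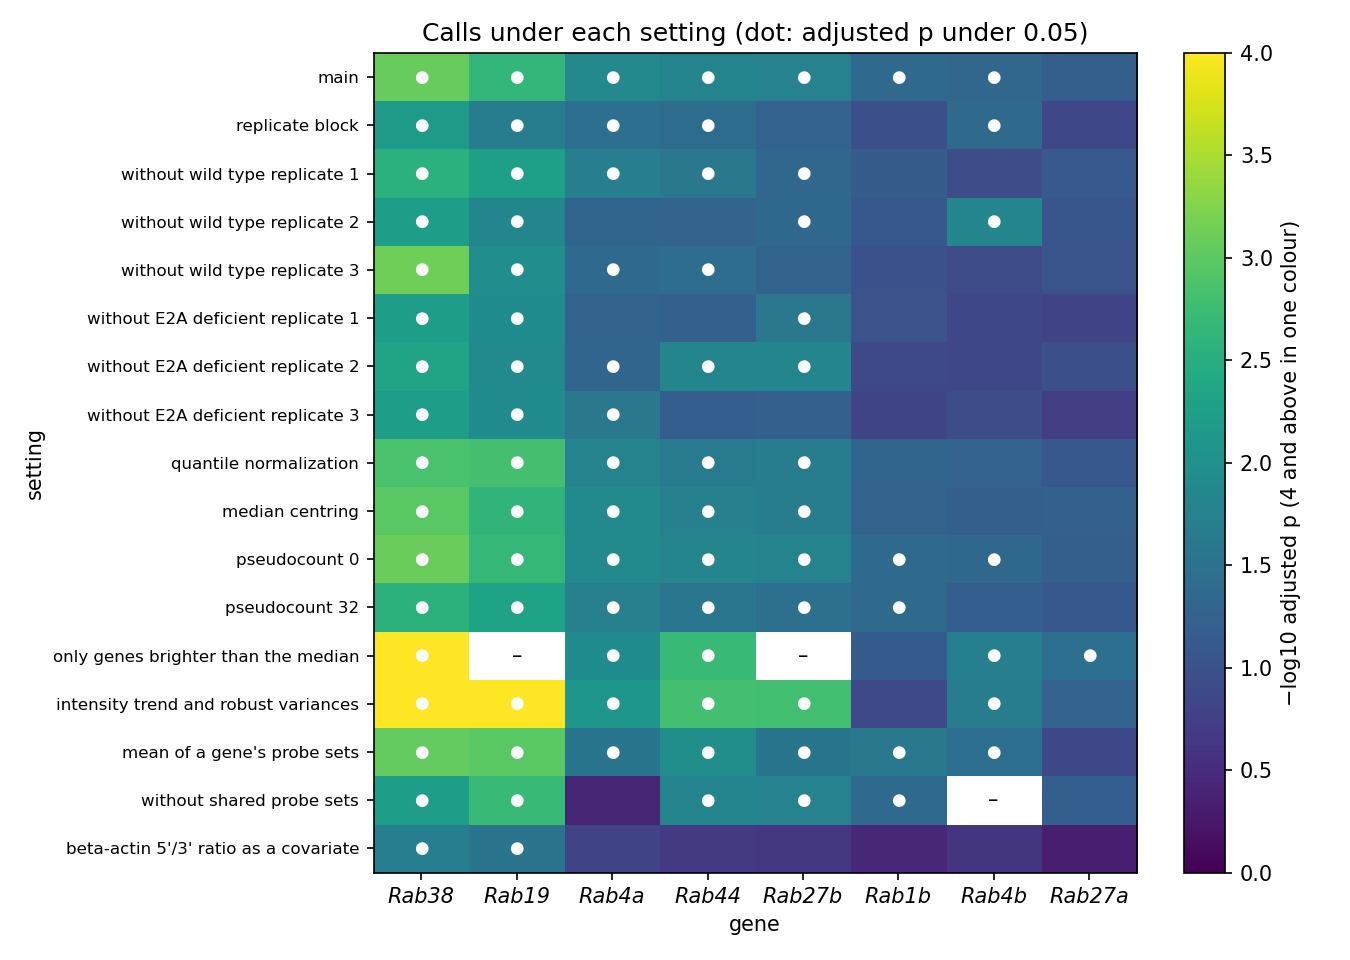
Limma adjusted p (colour, as -log10) of the 7 called Rab genes and Rab27a in the main setting and 16 alternatives; a dot marks an adjusted p under 0.05 and a dash a gene that could not be tested. Only the columns of Rab38 and Rab19 hold a dot in every cell that could be tested.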

How the data were processed

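The authors deposited 1 intensity per probe set and array, on a linear scale. RMA is the only tool named, per the submitters' processing notes; its version, the return to linear values and any filter are not given in the sources used here. Of 45037 probe sets beside 64 controls, the annotation named 1 gene for 34945, several for 932 and none for 9160, which left 18193 genes. Each gene was represented by its brightest probe set, by mean log2 intensity over the 6 arrays. Log2(intensity + 1) was fitted per gene in limma 3.58.1 (R 4.3.3), two-sided, with genotype alone and Benjamini-Hochberg adjustment over all genes at 0.05, with no further normalization or filter. The fit was tested on simulated data. Members and lists were chosen with earlier results of these data known. The rule for named genes took called members, members with an unadjusted p under 0.05 or groups without overlap, the 10 brightest members, and, per machinery list, called genes or at least the 3 with the smallest p. Marker lists of T, NK, B, myeloid, mast, dendritic, erythroid, platelet, melanocyte, thymic epithelial and stromal cells were only summed; of their genes beside the innate lymphoid list, Thy1, Cd5 and 1 myeloid marker fell and 1 cytotoxic marker rose. The 3 arrays per group limit the precision. The alternatives left out each array in turn, or used a block for replicate number, 2 other normalizations, pseudocounts of 0 and 32, only brighter genes, another variance model, 2 other choices of probe set and the beta-actin 5'/3' ratio as a covariate. Figures used matplotlib 3.10.9.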

Additional observations from a re-analysis of the deposited data

How the results depend on the processing

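The same replicate number did not mark shared deviations (correlations of 0.0168, 0.0166 and -0.0417 between same-numbered arrays), and with the replicate number as a block 459 genes were called, 3 Rab genes higher and 2 lower; Rab27b (adjusted p = 0.0552 by limma), Rab1b (0.105), Tbc1d16 (0.0689) and Ehbp1l1 (0.0755) were then not called. Rab genes called higher, 5 in the main setting, were 3 after quantile normalization, 3 after median centring, 3 without shared probe sets, 2 among only genes brighter than the median, where Rab19 and Rab27b fall below that limit, and 1 with the beta-actin covariate. They were 2 to 3 with 1 array left out. Rab genes called lower were 1 to 2 with 1 array left out and 1 with the covariate. Genes acting on Rabs called lower were 1 to 4 with 1 array left out, 5 among only brighter genes, 6 with an intensity trend and 1 with the covariate, and those called higher stayed between 2 and 4. All genes called were 320 to 533 with 1 array left out and 123 with the covariate. The causes were not tested.

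Sign changes were limited to genes that did not pass. With 1 array left out, Rab31 ran from -0.0561 to 0.168, Rab7 from -0.122 to 0.0589, Rab14 from -0.176 to 0.179 and Rab10 from -0.121 to 0.0932. With the mean of probe sets Rab7 had 0.0209, Rab14 0.0412 and Rab10 0.00153. Rab31 had -0.0111 after quantile normalization, and Rab7 had 0.0847 with the covariate. Without shared probe sets Rabif had -0.0879 and Dennd2d 0.0385. Rab19, Rab27b and other dim genes had no value among only brighter genes, and Rab4b had none without shared probe sets.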
